A study of Homo sapiens with 3 samples.

Results

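*IGF2*, *H19*, *CDKN1C*, *PHLDA2* and *KCNQ1OT1* on chromosome band 11p15 and *DLK1*, *MEG3* and *RTL1* on 14q32 are imprinted genes, and their promoter contacts were described in human cardiomyocytes. The 8 genes comprised 5 protein-coding genes and 3 long non-coding RNAs in the annotation used. Promoter capture Hi-C (PCHi-C) had been performed on 3 biological replicates of hESC-CMs, that is, cardiomyocytes differentiated from 1 human embryonic stem cell line, WA09 (H9). In this assay, crosslinked DNA is cut with the restriction enzyme HindIII, ends that lay close together are ligated, and fragments carrying promoters are pulled out with RNA baits. All replicates were untreated cells of the same condition, purified in lactate medium, so there was no second group to compare with. The members were chosen by position: each HindIII fragment listed as a promoter fragment in at least 1 replicate and holding an annotated transcript start of 1 of the 8 genes was taken. This gave 9 promoter fragments of the 19075 in the union of the replicates. Each interaction carried a CHiCAGO score, which is larger the more a read count exceeds what is expected at that distance, and pairs under a score of 5 were not listed. A contact missing from a replicate was therefore only not listed there and was not shown to be absent. The study checked the purity of the cells before fixation, by flow cytometry and qPCR of *TNNT2* and a myosin heavy chain gene. The deposited calls hold contacts and no expression, so the cell type was not checked again here.

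An imprinted gene is transcribed mainly from the chromosome inherited from 1 parent, and genes of this kind lie in clusters that share an imprinting control region methylated on 1 parental copy. *IGF2*, which encodes a fetal growth factor, is expressed from the paternal copy, and the non-coding RNA *H19* from the maternal copy. Between them the insulator protein CTCF binds the unmethylated maternal control region and separates *IGF2* from enhancers beyond *H19*. In the neighbouring domain, the non-coding RNA *KCNQ1OT1* starts inside the potassium channel gene *KCNQ1*, at the control region itself, and is transcribed from the paternal copy. The maternal copy expresses *CDKN1C*, an inhibitor of cyclin-dependent kinases, and *PHLDA2*, which restrains placental growth. On 14q32, *DLK1* encodes a transmembrane protein of the Notch ligand family and *RTL1* a protein derived from a retrotransposon, both paternally expressed, while *MEG3* is a maternally expressed non-coding RNA. The deposited calls do not separate the parental copies, so every contact below is a sum over both.

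Several fragments held the starts of more than 1 gene, and a contact of such a fragment cannot be assigned to 1 of them. *IGF2*, transcribed towards lower coordinates, had 10 annotated transcript starts. Of these, 7 lay in the fragment chr11:2155755-2164250 (GRCh37, as throughout), called the *IGF2* downstream fragment here, which also held the start of *IGF2-AS*. A further 2 lay in the *IGF2* upstream fragment, chr11:2175865-2185890, together with *INS*, the insulin gene, and *INS-IGF2*. The *H19* fragment (chr11:2005194-2023179) held 30 of 31 *H19* starts, as well as starts of *LINC01219* and *MRPL23-AS1*. The outermost *H19* start, at the 5′ end of the annotated gene, lay in the next fragment (chr11:2023180-2029380), which was in no replicate's calls. The *CDKN1C* fragment (chr11:2904920-2914487) was shared with *SLC22A18AS*, and the *PHLDA2* fragment (chr11:2942005-2956183) with *SLC22A18*, which encodes a transporter. *KCNQ1OT1* (chr11:2714646-2738919) and *DLK1* (chr14:101188816-101199332) had fragments of their own. The *RTL1* fragment (chr14:101364465-101372301) also held a start of the non-coding RNA *MEG8* and the start of AL117190.1. For *MEG3*, the fragment in the calls (chr14:101311084-101318913, shared with the microRNA gene *MIR770*) held only 2 of 50 annotated starts. The fragment with 31 *MEG3* starts, chr14:101280755-101297760, was in no replicate's calls either. Whether these *H19* and *MEG3* fragments had been captured was not analysed here.

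*CDKN1C* and *RTL1* had by far the most interacting fragments, while the *IGF2* downstream fragment, *DLK1* and *MEG3* had almost none. The *CDKN1C* fragment had 16, 27 and 18 partners in replicates 1, 2 and 3 (20.3 ± 5.86, mean ± SD, n = 3). The *RTL1* fragment had 13, 16 and 17 (15.3 ± 2.08). No replicate of another member reached the lowest count of either. *PHLDA2* had 4, 7 and 7 partners, *KCNQ1OT1* had 5 in each replicate, and the *IGF2* upstream fragment had 5, 5 and 3. *H19* had 2, 3 and 2, *MEG3* had 1, 2 and 0, *DLK1* had 0, 0 and 2, and the *IGF2* downstream fragment had 0, 0 and 1. Over the union of the replicates this came to 31 partners for *CDKN1C*, 20 for *RTL1*, 12 for *PHLDA2*, 9 for the *IGF2* upstream fragment, 8 for *KCNQ1OT1*, 6 for *H19*, 2 each for *DLK1* and *MEG3*, and 1 for the *IGF2* downstream fragment. On the merged replicates the order of the first 2 turned, with 34 partners for *RTL1* and 25 for *CDKN1C*. Across all 19075 promoter fragments in the union the median was 6, with quartiles of 3 and 14. Captured fragments without any call are not in the union, so they are outside this and every share of promoter fragments given here. *CDKN1C* had more partners than 92.3% of promoter fragments and *RTL1* more than 83.8%, whereas *DLK1* and *MEG3* each had more than 9.62%. At least 20 partners were found for 2 of the 9 fragments and for 16.2% of all promoter fragments.

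**Figure D1:**
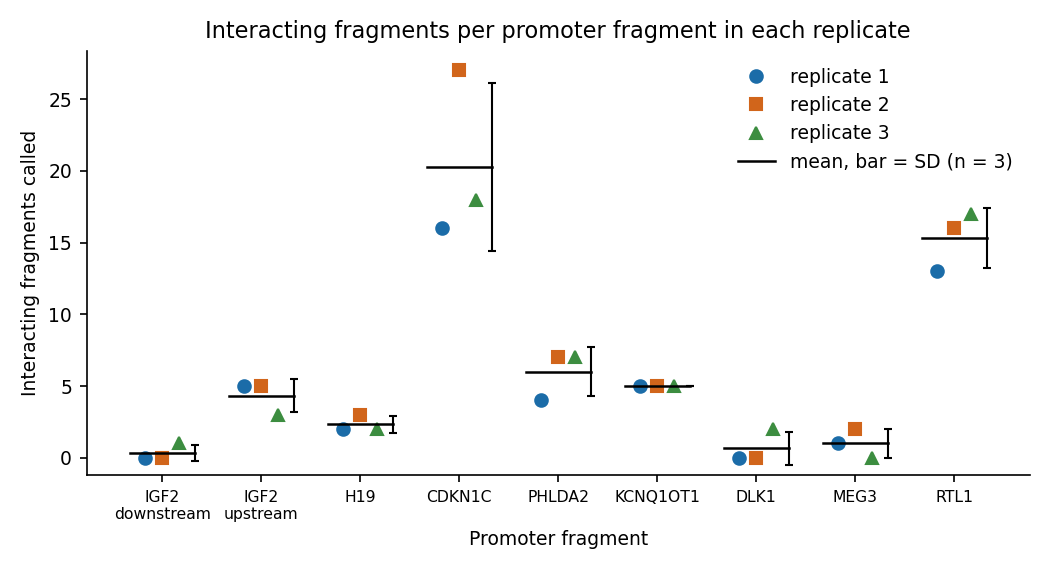
Number of interacting fragments called for each of the 9 promoter fragments (vertical axis, count) in replicates 1 (circles), 2 (squares) and 3 (triangles), with the mean (line) and SD (bar, n = 3). *CDKN1C* (16 to 27) and *RTL1* (13 to 17) lie above all other fragments in every replicate.

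Together the 9 fragments had 45, 64 and 54 interactions in replicates 1, 2 and 3 (54.3 ± 9.50, n = 3) and 90 in the union. Of the 90, 26 were called in all 3 replicates (28.9%, 95% Wilson interval 20.5 to 39.0%, counting error only), 21 in 2 replicates and 43 in 1. The share over all interactions was 24.0%. Among interactions spanning at most 1 Mb, which recur more often, it was 29.9% for the imprinted genes (26 of 87) and 34.0% for all promoters. The 26 recurrent contacts were unevenly spread, with 12 at *RTL1*, 11 at *CDKN1C*, 3 at *KCNQ1OT1* and 1 at *PHLDA2*, the contact between *CDKN1C* and *KCNQ1OT1* counting for both. The remaining 5 fragments had none. At least 1 contact in all replicates was thus found for 4 of 9 fragments, against 51.9% of all promoter fragments. On 14q32, 12 of 24 interactions were in all 3 replicates (50.0%, 31.4 to 68.6%), compared with 14 of 66 on 11p15 (21.2%, 13.1 to 32.5%). All 12 on 14q32 belonged to the *RTL1* fragment, so the comparison rests on few promoter fragments. Many partners were adjacent fragments called with the same promoter fragment. Such interactions are not independent, and the intervals do not allow for that.

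The contacts on 11p15 were shorter than the typical promoter interaction of these cells, while those on 14q32 showed no such difference beyond the replicate spread. Over both clusters, the median distance between fragment midpoints was 382 kb over the 89 same-chromosome interactions, against 716 kb over all interactions. Replicate medians were 408, 377 and 376 kb (387 ± 18.3, n = 3), against 557 ± 20.8 kb for all. On 11p15 the replicate medians were 365, 351 and 343 kb (353 ± 11.4), all below those of all interactions. On 14q32 they were 523, 726 and 516 kb (588 ± 119), on both sides of the values for all interactions (541, 549 and 580 kb). Each cluster was delimited by the outermost of its listed imprinted and neighbouring genes, giving 1172 kb from *H19* to *OSBPL5* and 1083 kb from *BEGAIN* to *DIO3OS*. On 11p15, 51 of 66 interactions (77.3%, 95% Wilson interval 65.8 to 85.7%) had the midpoint of the partner inside the cluster. By fragment, these were 31 of 31 for *CDKN1C*, 10 of 12 for *PHLDA2* and 8 of 8 for *KCNQ1OT1*. The *IGF2* and *H19* contacts mostly left the cluster. Inside it were 2 of 6 for *H19*, 1 of 9 for *IGF2* upstream and 0 of 1 for *IGF2* downstream. On 14q32 the midpoint was inside the cluster for 6 of 24 interactions (25.0%, 12.0 to 44.9%), and most *RTL1* partners lay outside. The 14q32 cluster ended at chr14:102086692, and the strongest group of *RTL1* partners (chr14:102089933-102112051) began just past this edge. All *MEG3* and *DLK1* partners also lay past it, at chr14:102094155-102125131. The difference between the clusters therefore rests on the edges chosen, and wider edges were not tested.

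*CDKN1C* contacted the 5′ part of *KCNQ1*, and every one of its 31 partners lay on the lower-coordinate side, towards *KCNQ1*, *TRPM5* and *TH*. Among promoter fragments with at least 10 partners on their own chromosome, 34.6% had them all on 1 side. The nearest partner was 152 kb away and the farthest 719 kb. The strongest contact was with chr11:2545012-2558430, which holds *KCNQ1* exon sequence 358 kb away, with scores of 22.59, 21.42 and 20.33 in replicates 1, 2 and 3 (21.4 ± 1.13). It belonged to an unbroken run of 10 adjacent partners over 50.6 kb of *KCNQ1* (chr11:2526545-2577137), of which 6 recurred in all replicates. Within this run, the intronic fragment chr11:2568002-2573010 scored 13.4, 13.0 and 12.98 (13.1 ± 0.237), the smallest spread among its 5 strongest contacts. Its neighbour chr11:2558431-2568001 scored 7.98, 15.93 and 15.86 (13.3 ± 4.57), with replicate 1 well below the others. The fragment chr11:2538146-2543838, with *KCNQ1* exon sequence, scored 11.5, 13.56 and 9.91 (11.7 ± 1.83).

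Beyond this run, *CDKN1C* contacted the promoters of channel genes. The fragment chr11:2433554-2457868, which carries exons and a start of *TRPM5*, a cation channel of taste cells, scored 10.53, 20.6 and 11.75 (14.3 ± 5.50), replicate 2 standing well above the rest. The next fragment, chr11:2457869-2471607, holds starts of both *TRPM5* and *KCNQ1*, whose channel carries a repolarising current of heart muscle. It scored 7.5, 10.94 and 6.28 (8.24 ± 2.42) at 445 kb. The fragments with starts of *TSSC4* (6.93, replicate 1) and *TH*, the tyrosine hydroxylase gene (7.0, replicate 2), were each called once. The farthest contact in all replicates was 703 kb away at chr11:2206113-2208023, between *TH* and *ASCL2*, at 8.23, 8.34 and 5.84 (7.47 ± 1.41). CTCF contributes to many chromatin loops, and the letters of its core motif, 14 bases long, were searched on both strands. Of the 14 letters, 6 were fixed and the others accepted more than 1 base. The *TRPM5* fragment held 3 matches, the strongest *KCNQ1* partner 1 and the *CDKN1C* promoter fragment 2. These windows show each match in capitals with 30 bases on either side, 5′ to 3′ on the strand of the match, because they lie at the 2 ends of the leading *CDKN1C* contacts:
*CDKN1C* fragment, chr11:2905396-2905469, plus strand: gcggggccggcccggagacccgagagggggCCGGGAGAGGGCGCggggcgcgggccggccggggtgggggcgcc
*CDKN1C* fragment, chr11:2909750-2909823, minus strand: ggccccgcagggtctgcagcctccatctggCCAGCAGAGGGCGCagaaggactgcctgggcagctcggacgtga
*KCNQ1* partner, chr11:2552756-2552829, minus strand: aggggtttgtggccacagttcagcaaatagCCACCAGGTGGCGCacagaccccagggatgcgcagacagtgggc
*TRPM5* partner, chr11:2441024-2441097, minus strand: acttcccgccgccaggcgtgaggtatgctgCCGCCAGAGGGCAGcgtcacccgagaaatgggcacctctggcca
*TRPM5* partner, chr11:2442078-2442151, minus strand: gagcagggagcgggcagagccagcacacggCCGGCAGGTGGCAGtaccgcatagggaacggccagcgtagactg
*TRPM5* partner, chr11:2449579-2449652, plus strand: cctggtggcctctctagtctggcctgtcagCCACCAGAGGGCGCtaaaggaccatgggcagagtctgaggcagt
These 2 partners were long, at 13419 and 24315 bp, and the remaining 9 partners of *CDKN1C* in all replicates held no match, among them 3 of its 5 strongest. Matches were not particular to the fragment with the strongest contacts, since the *PHLDA2* promoter fragment also held 2. The *KCNQ1OT1* promoter fragment held none. A match describes letters in the reference and not binding in these cells.

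*CDKN1C* and *KCNQ1OT1* formed the single contact that joined promoter fragments of members. They lie 183 kb apart, and the contact was called in every replicate with scores of 7.64, 9.81 and 9.52 (8.99 ± 1.18) and 12.67 on the merged replicates. Around it, *CDKN1C* was called with 5 adjacent fragments of the *KCNQ1OT1* start and the transcribed region beyond it (chr11:2703495-2738919, 35.4 kb), of which chr11:2710461-2710763 was also in all replicates at 7.08, 6.59 and 6.29 (6.65 ± 0.399). Seen from the *KCNQ1OT1* side, 4 adjacent partners covered 24.7 kb ending at *CDKN1C* (chr11:2889770-2914487). Among them, the fragment with the start of the non-coding gene *KCNQ1DN* scored 6.84, 5.65 and 5.71 (6.07 ± 0.670), and the fragment chr11:2895793-2904919 with *CDKN1C* exon sequence scored 5.58, 5.51 and 7.21 (6.10 ± 0.962). With the *CDKN1C* contact, these were the *KCNQ1OT1* contacts found in all 3 replicates. No replicate called *KCNQ1OT1* with the *PHLDA2* promoter fragment.

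*PHLDA2* contacted part of the same stretch of *KCNQ1*, and other places, with low scores. Of its 12 partners, 8 (66.7%) were also partners of *CDKN1C*, which was 25.8% of the 31 of *CDKN1C*. Not all of the shared partners lay in that stretch. Some lay between *TH* and *ASCL2*, and another held starts of *TRPM5* and *KCNQ1*. The highest *PHLDA2* score in a replicate was between *TH* and *ASCL2*, 740 kb away at chr11:2208024-2209682 (7.35 and 5.06, replicates 1 and 2). The *CDKN1C* and *PHLDA2* promoter fragments are near neighbours, and the part of this in the sharing was not tested. The single *PHLDA2* contact in all replicates was chr11:2538146-2543838, at 5.57, 5.97 and 5.68 (5.74 ± 0.207), where *CDKN1C* scored higher in each replicate. The strongest *KCNQ1* partner of *CDKN1C* was called with *PHLDA2* in replicates 2 and 3 at 5.14 and 5.22 and with *KCNQ1OT1* in replicate 3 at 5.03. Replicate 3 alone placed 2 *PHLDA2* contacts on the higher-coordinate side, at *OSBPL5*, which encodes a lipid transfer protein (6.04), and beyond it (5.31).

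**Figure D2:**
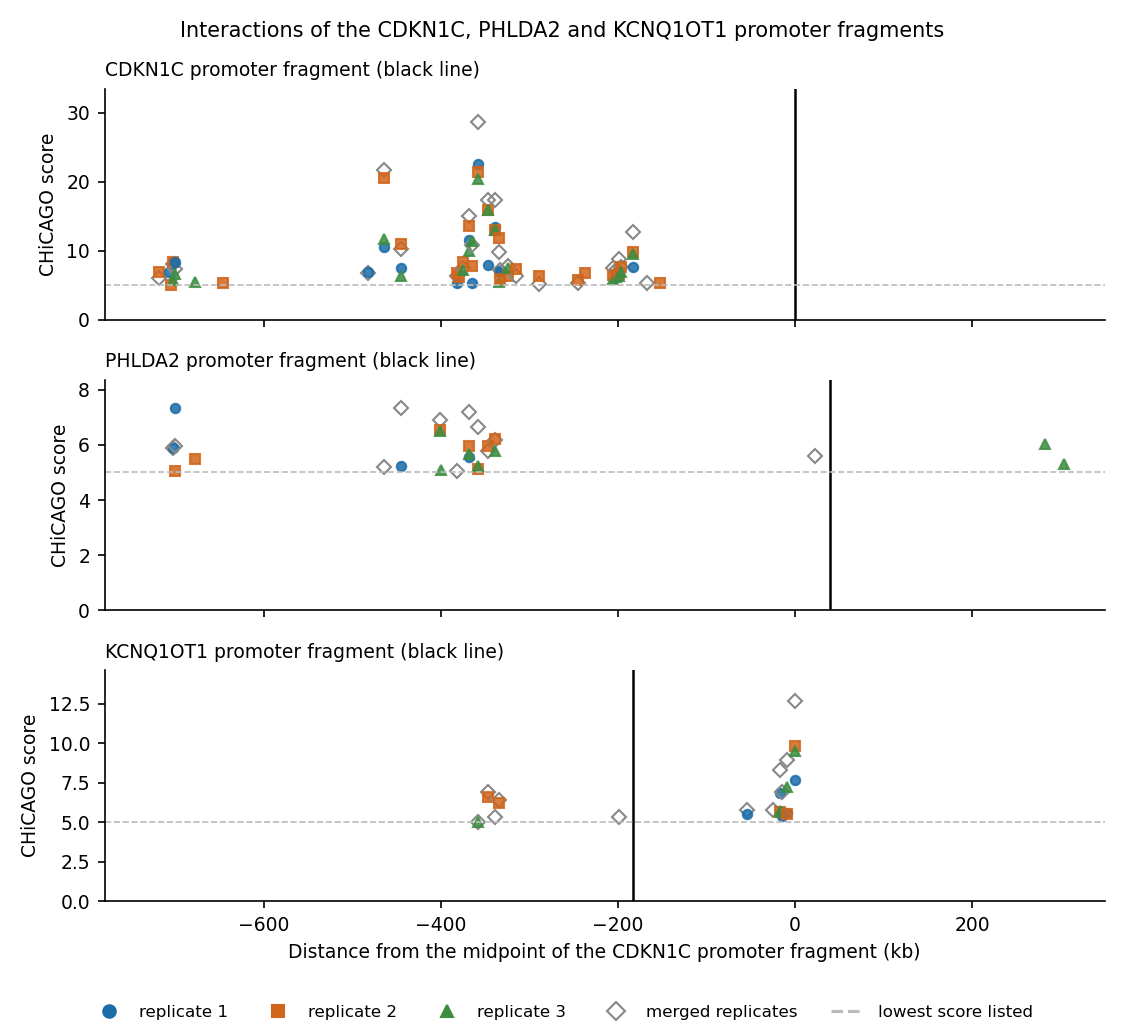
CHiCAGO score (vertical axis) of each interaction of the *CDKN1C*, *PHLDA2* and *KCNQ1OT1* promoter fragments (3 panels, black line at the fragment itself) against the partner's distance in kb from the midpoint of the *CDKN1C* fragment, for replicates 1 to 3 (filled symbols) and the merged replicates (open diamonds). All *CDKN1C* partners lie to the left, highest at 358 kb (20.33 to 22.59 in the replicates), and *PHLDA2* has scores over the same region at 5.06 to 7.35 in the replicates.

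The *IGF2* and *H19* promoter fragments had few contacts, none of them in all 3 replicates. The *IGF2* upstream fragment had 4 partners in 2 replicates each and 5 in 1. Its partners in 2 replicates lay 307 to 469 kb away, between the keratin-associated protein gene *KRTAP5-5* and *PRR33*. The fragment with starts of *KRTAP5-6* and *FAM99B* (chr11:1703678-1719886) scored 7.36 and 5.65 in replicates 1 and 2. The fragment between *TNNI2*, which encodes a skeletal muscle troponin, and *LSP1* (chr11:1867906-1869236) scored 7.04 and 5.61 in replicates 1 and 3. Its neighbour with a start of *LSP1*, a leukocyte protein gene, scored 5.06 and 6.07 in replicates 1 and 2. The fourth partner lay between *KRTAP5-6* and *IFITM10* and was a fragment of 231 bases (39.8% GC), at 6.43 in replicate 2 and 5.27 in replicate 3. It is shown whole with the remains of the HindIII sites in capitals:
*IGF2* upstream partner, chr11:1726470-1726700, plus strand: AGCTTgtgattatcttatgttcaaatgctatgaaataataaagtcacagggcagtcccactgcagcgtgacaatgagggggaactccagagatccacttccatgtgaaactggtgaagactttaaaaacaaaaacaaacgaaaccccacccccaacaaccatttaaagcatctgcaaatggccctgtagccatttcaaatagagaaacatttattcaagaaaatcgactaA
The highest score of the *IGF2* upstream fragment, 7.74, was with the fragment of *TSSC4* and *TRPM5* on the *KCNQ1* side and came from replicate 2 alone. Its farthest contact, 43252 kb away on chromosome 11, was in replicate 1 alone (5.81).

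The *IGF2* downstream fragment, with most of the *IGF2* starts, had 1 contact in the replicates, with an intron of *PCBP3* on chromosome 21 (6.54, replicate 3). On the merged replicates that contact was not listed, and 2 others were, at chr11:1867906-1869236 (5.85) and in *LSP1* (5.18). With at most 1 mismatch outside the fixed letters of the CTCF motif, the *H19*, *IGF2* upstream and *IGF2* downstream fragments each held 2 matches. The lack of an exact match therefore does not show that a CTCF site is missing. The downstream fragment held the single exact CTCF core match among the *IGF2* and *H19* promoter fragments:
*IGF2* downstream fragment, chr11:2158219-2158292, plus strand: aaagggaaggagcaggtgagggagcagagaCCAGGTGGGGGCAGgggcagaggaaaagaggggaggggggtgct
*H19* was called with *IGF2* in replicate 2 alone, at fragments inside the gene and with neither *IGF2* promoter fragment. These were 2 adjacent fragments, chr11:2169843-2172797 (6.42), which holds 1 *IGF2* start, and chr11:2172798-2173106 (5.13), 157 and 159 kb away. Merged scores were 8.04 and 5.55, and the next fragment, chr11:2173107-2175864, was listed on the merged replicates alone (5.78). On its other side, *H19* reached a fragment between *KRTAP5-6* and *IFITM10* (chr11:1719887-1726469) in replicates 1 and 3 at 5.45 and 5.4. *H19* and the *IGF2* upstream fragment shared 2 partners, 33.3% of the 6 of *H19* and 22.2% of the 9 of *IGF2*. One was chr11:1658863-1659371, with 6.24 for *H19* in replicate 2 and 5.35 for *IGF2* in replicate 3. The other was the fragment between *TNNI2* and *LSP1*, with 5.03 for *H19* in replicate 1. On the merged replicates, that fragment and the *LSP1* fragment chr11:1891521-1891693 were each called with *H19* and both *IGF2* fragments.

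**Figure D3:**
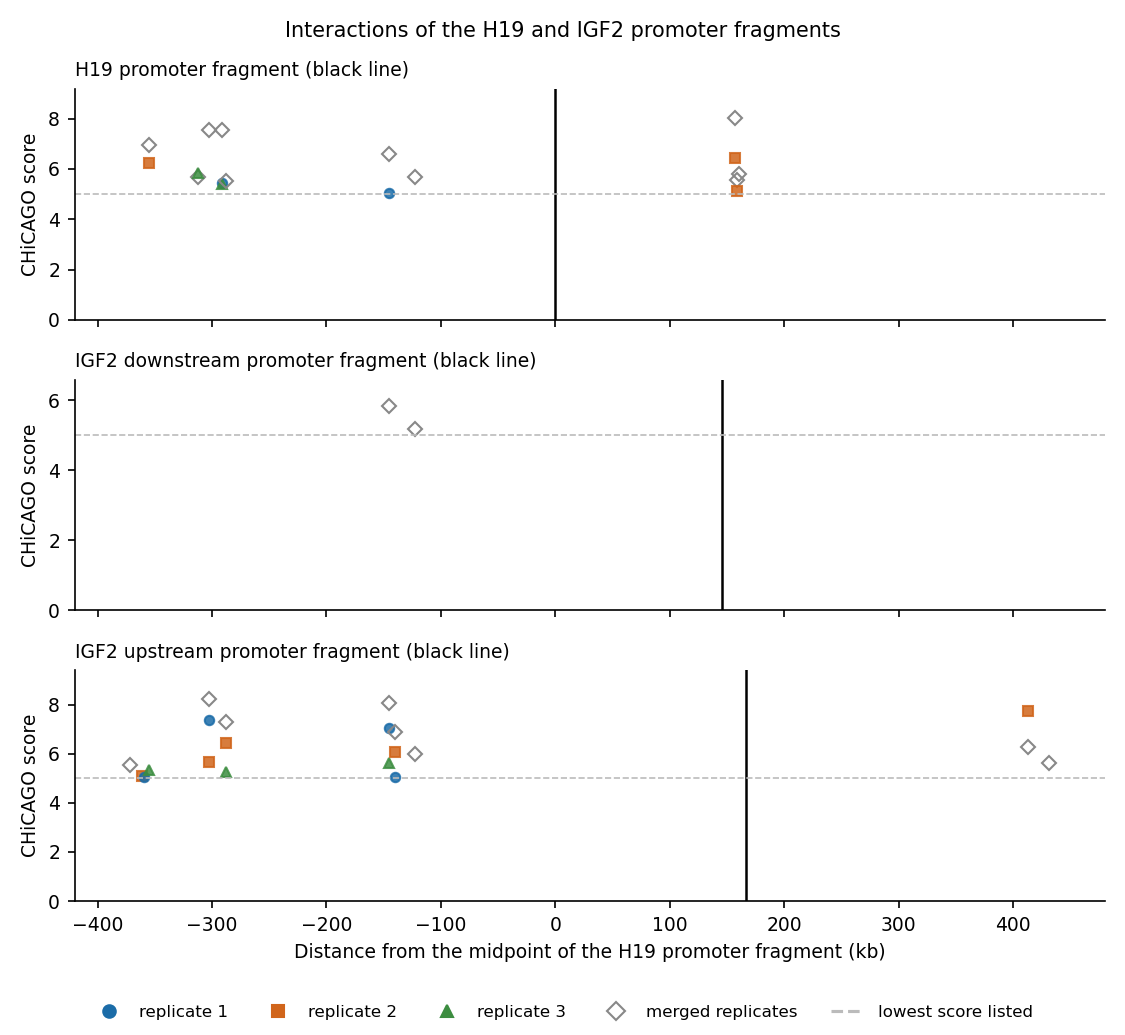
CHiCAGO score (vertical axis) of each interaction of the *H19*, *IGF2* downstream and *IGF2* upstream promoter fragments (3 panels, black line at the fragment itself) against the partner's distance in kb from the midpoint of the *H19* fragment, for replicates 1 to 3 (filled symbols) and the merged replicates (open diamonds). No partner is called in all 3 replicates, the downstream panel has merged calls only, and the contacts with chromosome 21 and at 43252 kb lie outside the axis.

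The middle *IGF2* fragment chr11:2169843-2172797 was not itself a promoter fragment in the calls and appeared as a partner of others. It was called with the promoter fragment of *KRTAP5-6* and *FAM99B* in all replicates at 6.48, 5.83 and 5.41, at 460 kb. The promoter fragment of *LSP1* was called with it in replicates 1 and 2 (6.35 and 5.31). The promoter fragment of *TNNI2* and *SYT8* was called with it in replicate 3 (5.4). The middle *IGF2* fragment thus had a contact in all replicates with the same region that the *IGF2* upstream fragment reached in 2 replicates.

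*RTL1* had the most reproducible contacts, 12 of 20 in all 3 replicates, grouped at 5 places on both sides. The strongest group lay 724 to 743 kb away on the higher-coordinate side, past *DIO3*, the gene of an enzyme that inactivates thyroid hormone. It was a run of 5 adjacent fragments over 22.1 kb (chr14:102089933-102112051), 4 of them in all replicates. Its peak, chr14:102097336-102098367, scored 17.68, 14.3 and 18.66 (16.9 ± 2.29). The fragment before it, chr14:102094155-102097335, scored 14.9, 11.82 and 13.01 (13.2 ± 1.55). The fragment after it, with a start of a transcript that has no gene symbol and exons of *LINC02320*, scored 15.03, 7.75 and 8.38 (10.4 ± 4.03), replicate 1 standing apart. The fragment before the peak held the single CTCF core match of the run, printed because *MEG3* and *RTL1* share this partner:
Partner of *MEG3* and *RTL1*, chr14:102094912-102094985, minus strand: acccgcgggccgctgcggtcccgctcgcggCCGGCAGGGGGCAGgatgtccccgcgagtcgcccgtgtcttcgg

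On the lower-coordinate side, *RTL1* contacted 3 adjacent fragments within 2.55 kb of an intron of *WDR25*, a gene of the WD40 repeat family, directly next to the promoter fragment of *WARS1* and *WDR25* and 515 to 517 kb away. The first, of 197 bases (37.6% GC), scored 10.76, 9.3 and 9.96 (10.0 ± 0.731). The second scored 9.8, 7.89 and 8.13 (8.61 ± 1.04) and the last 9.72, 8.69 and 9.69 (9.37 ± 0.586). A fragment of 267 bases (48.7% GC) in an intron of the non-coding gene *LINC00523*, between *BEGAIN* and *DLK1*, scored 7.23, 7.61 and 7.29 (7.38 ± 0.204), the smallest spread of any *RTL1* contact in all replicates. Both short fragments are shown whole with the remains of the HindIII sites in capitals. They are the 2 shortest *RTL1* partners in all replicates, and both have an adjacent fragment that was called too:
*WDR25* intron partner, chr14:100851502-100851698, plus strand: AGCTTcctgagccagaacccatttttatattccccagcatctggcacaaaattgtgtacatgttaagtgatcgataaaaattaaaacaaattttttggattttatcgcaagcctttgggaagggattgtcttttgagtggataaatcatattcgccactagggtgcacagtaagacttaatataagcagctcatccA
*LINC00523* intron partner, chr14:101129082-101129348, plus strand: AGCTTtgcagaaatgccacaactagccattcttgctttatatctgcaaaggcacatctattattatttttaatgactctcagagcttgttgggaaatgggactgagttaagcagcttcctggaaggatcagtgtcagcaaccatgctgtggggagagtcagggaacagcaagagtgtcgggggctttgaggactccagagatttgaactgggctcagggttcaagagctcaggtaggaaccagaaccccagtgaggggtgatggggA
Neither held a CTCF core match, which says only that these letters are absent from these windows. Between *RTL1* and *DIO3*, 3 adjacent fragments 330 to 336 kb away (chr14:101697596-101705843) were in all replicates, with means of 6.40 to 6.92. A fragment at 529 kb scored 5.29, 7.55 and 6.74 (6.53 ± 1.15). One contact, at *RNASE6*, a ribonuclease gene 80119 kb away on the same chromosome, was in replicate 2 alone (5.21).

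*MEG3* and *DLK1* had contacts with the same region past *DIO3* and nowhere else. *MEG3* was called with the peak fragment chr14:102097336-102098367 in replicates 1 and 2 (6.74 and 6.2) and with the fragment before it in replicate 2 (5.49), both of which were *RTL1* partners. *DLK1* was called with the peak fragment (5.36) and with chr14:102121500-102125131 (6.17), 904 and 929 kb away, in replicate 3 alone. None of the 3 promoter fragments was called with another of the 3. The *MEG3* fragment in the calls, internal to the gene, held 1 CTCF core match:
*MEG3* fragment, chr14:101317623-101317696, plus strand: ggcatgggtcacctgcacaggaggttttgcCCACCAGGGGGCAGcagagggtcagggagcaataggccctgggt
The *DLK1* and *RTL1* promoter fragments held none.

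**Figure D4:**
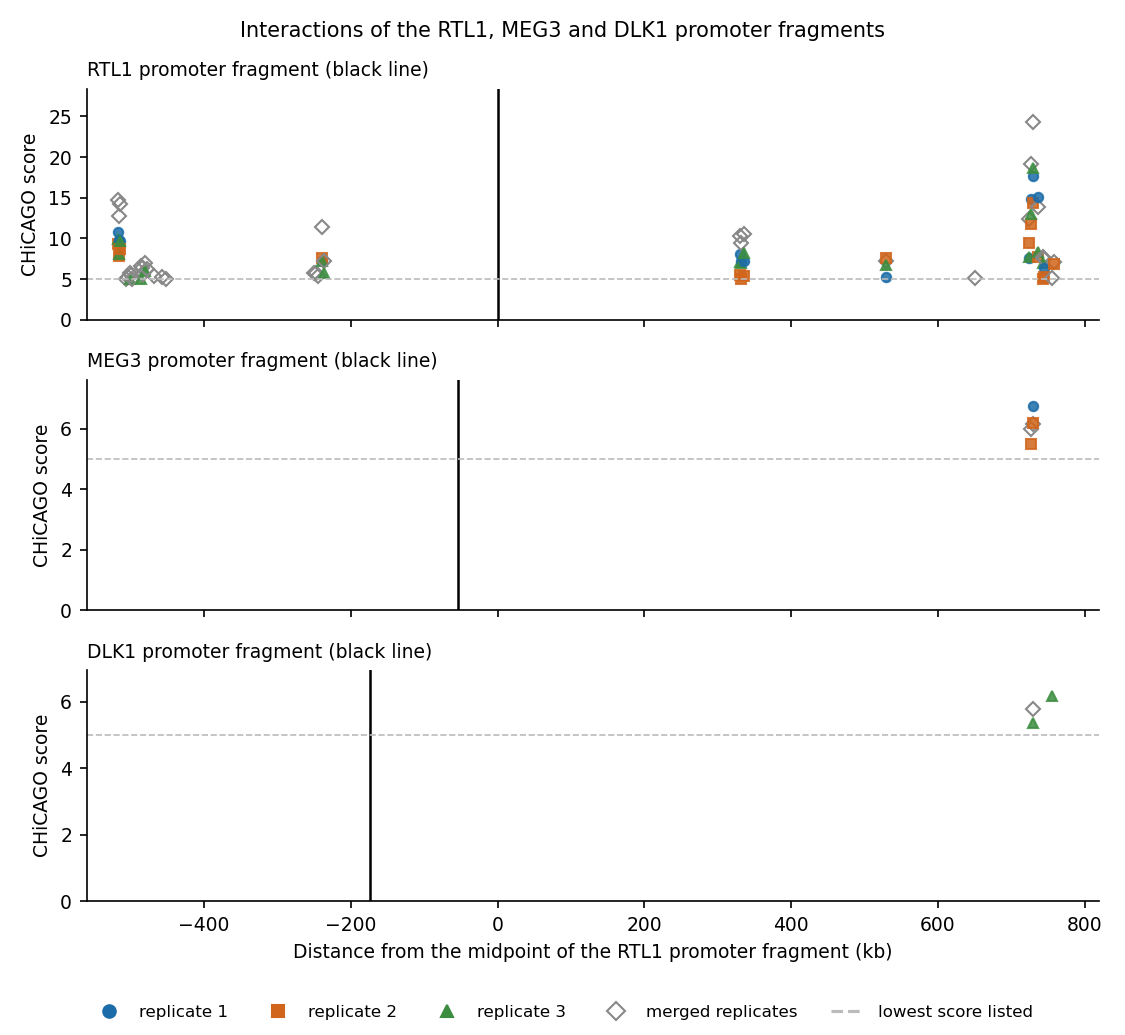
CHiCAGO score (vertical axis) of each interaction of the *RTL1*, *MEG3* and *DLK1* promoter fragments (3 panels, black line at the fragment itself) against the partner's distance in kb from the midpoint of the *RTL1* fragment, for replicates 1 to 3 (filled symbols) and the merged replicates (open diamonds). All *MEG3* and *DLK1* points fall in the region near 729 kb where *RTL1* scores highest (14.3 to 18.66 in the replicates), and the *RTL1* contact at 80119 kb lies outside the axis.

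The peak fragment past *DIO3*, 1032 bases long between *DIO3* and *PPP2R5C*, was the partner of 19 promoter fragments in the union. Having at least 10 was found for 0.786% of all partners, and 99.9% had fewer than 19. The fragment was singled out for sharing the most member fragments and, among equals, for the most promoter fragments. Its high count is therefore partly a product of that choice, and these shares describe the fragment without testing it. All 19 lay on the lower-coordinate side, 560 to 1393 kb away, from *YY1*, which encodes a zinc finger transcription factor, to *MEG9*, a non-coding RNA of the imprinted cluster. Contacts with 9 of them recurred in all 3 replicates, 4 were found in 2 and 6 in 1. The highest score was with the promoter fragment of *WARS1*, a tryptophan tRNA synthetase gene, and *WDR25*, at 32.48, 39.75 and 33.32 (35.2 ± 3.98) over 1254 kb. *RTL1* came second at 16.9 ± 2.29, and the fragment of the microRNA gene *MIR370* next at 11.59, 14.71 and 12.2 (12.8 ± 1.65). Among the other imprinted non-coding genes in all replicates, *MEG8* scored 7.58 ± 0.874 and *SNORD113-1*, a small nucleolar RNA gene, 6.55 ± 1.23 (mean ± SD, n = 3). Neither the promoter fragment of *DIO3* nor that of *PPP2R5C* was among them. The ranges of replicate scores of *RTL1* and *MIR370* overlapped, so their order was within the spread.

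**Figure D5:**
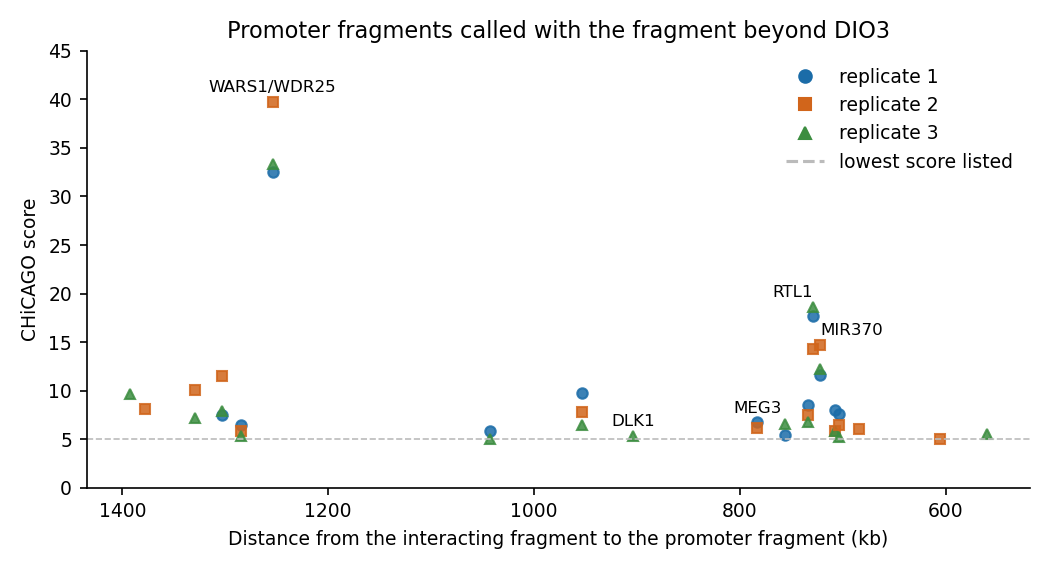
CHiCAGO score in each replicate (vertical axis) of the 19 promoter fragments called with the fragment past *DIO3*, against their distance from it in kb, decreasing to the right. The *WARS1*/*WDR25* fragment at 1254 kb stands highest (32.48 to 39.75), followed by *RTL1* (14.3 to 18.66) and *MIR370* (11.59 to 14.71).

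Over both clusters, the 9 fragments had 74 distinct partners, and 14 of them were called with at least 2 of the 9 fragments. With the merged calls added, 21 were shared. No partner was shared between 11p15 and 14q32, which says little, since 89 of the 90 interactions stayed on the chromosome of the member. *CDKN1C*, *PHLDA2* and *KCNQ1OT1* shared 2 fragments of *KCNQ1* (chr11:2545012-2558430 and chr11:2558431-2568001), and *IGF2* and *CDKN1C* shared only the *TSSC4* fragment, called in replicate 2 and replicate 1. Other promoter fragments with the most similar partners were found by the Jaccard index, the shared partners over all partners of either, among those with at least 3 shared. The nearest to *RTL1* were *MIR370* (0.542, 13 shared) and a separate *MEG8* fragment (0.462, 12 shared). The nearest to *CDKN1C* were the fragment of *SLC22A18* and *SLC22A18AS* (0.371, 13 shared) and *KCNQ1DN* (0.364, 12 shared). The same 2 were nearest to *PHLDA2* (0.381 and 0.238). For *KCNQ1OT1* they were *KCNQ1-AS1* (0.176) and *KCNQ1DN* (0.158). All are neighbours of the member, the nearest 4.70 kb and the farthest 165 kb away, and the part of this closeness in the likeness was not tested.

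The other genes of the 2 clusters came from a list of 28. On 11p15, 15 of the 17 listed genes had a promoter fragment in the calls, and 12 of these had 1 not shared with a member. Of the 12, 9 had a contact in all replicates and 6 were called with a member promoter fragment. The share of all promoter fragments with a contact in all replicates was 51.9%, but it counts fragments. In both clusters a gene with several fragments was counted if any of them had such a contact, so the 2 are not like measures. No share over all genes was computed for either count. Genes that share a fragment, such as *SLC22A18* and *SLC22A18AS*, were each counted. Those 6 were *TH*, *TSSC4*, *TRPM5*, *KCNQ1*, *KCNQ1DN* and *OSBPL5*. The starts of *ASCL2*, a transcription factor gene of the placenta, were in no promoter fragment with a call, and *MIR675* was not in the annotation. On 14q32, all 11 listed genes had a promoter fragment, 10 of them apart from the members, and 4 of the 10 had a contact in all replicates, *DIO3* and *DIO3OS* through the same fragment. None of the 10 was called with a member promoter fragment. The fragment of *DIO3* and *DIO3OS* had 9, 15 and 9 partners and 26 in the union, of which 2 were in all replicates.

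Of the 74 partners, 9 held at least 1 CTCF core match on either strand (12.2%, 95% Wilson interval 6.53 to 21.5%). Among all partners of promoter fragments the share was 3.75%. The imprinted partners were longer, with a median of 3119 against 2181 bp, and richer in GC, with a median of 53.3% against 40.5%. Per length the matches were 3.96 and 1.28 per 100 kb. The part of GC content in this difference was not tested. The 9 comprised the fragments of *KRTAP5-6*, *LSP1*, *TSSC4*, *TH*, *TRPM5*, *OSBPL5* and *CDKN1C*, the strongest *KCNQ1* partner and the fragment before the peak past *DIO3*.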

How the data were processed

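Promoter contacts were measured by PCHi-C in 3 biological replicates of hESC-CMs. Per the labels and the study's methods, the authors used HiCUP to map reads to GRCh37 and CHiCAGO, at its default settings, to call interactions, once per replicate and once on the merged replicates. The versions of both tools are not given in the sources used here. The values the authors deposited are CHiCAGO scores for pairs of HindIII fragments, with none under 5. Neither reads nor depth were analysed here, so no read-based interval could be given. The replicates held 112473, 109731 and 110740 interactions, the merged set 152757 and the union of the replicates 200587 as unordered pairs. Low contacts of a shallower library would be missing from the calls.

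Transcript starts came from GENCODE v44 (GRCh37 lift) and were assigned to the fragments of the files, whose ends were checked against HindIII sites of the genome (144397 of 144398 fragments had HindIII or chromosome ends). The study took its captured promoters from a different annotation, a release of Ensembl. The starts used here need not be those for which a fragment was captured. A pair was counted once whichever fragment came first. A mean score is over the replicates that called the pair, and SDs are between replicates. Intervals on shares are 95% Wilson intervals that cover counting error only and treat interactions or partners as independent. With 1 condition no test between groups was made. The members and gene lists were chosen with earlier results of these data known. The genes and fragments named were the 8 members, the listed genes of both clusters, the 5 partners with the highest mean score among those in all 3 replicates, partners shared between members and the 2 promoter fragments with the most similar partners. Other fragments were named after their scores were seen. All printed sequences were read from the GRCh37 genome at the stated positions. Counting was tested on simulated data with known answers. Alternatives were ordered pairs, minimum scores of 7 and 10, leaving out a replicate at a time, and calls on merged replicates. Others were matching within 5 kb, a span of at most 1 Mb, and 1 start per gene. The last allowed 1 mismatch in the CTCF motif, outside its 6 fixed letters. Analyses were run in Python 3.11.15 (matplotlib 3.10.9, numpy 2.4.6, scipy 1.17.1). One fragment sequence and the contact it belongs to are not reported here.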

Additional observations from a re-analysis of the deposited data

How the results depend on the processing

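A stricter score moved most values. With a score of at least 7 the imprinted promoter fragments had 36 interactions in place of 90, of which 38.9% were in all 3 replicates, 72.2% lay within the clusters and 19.4% of the partners held a CTCF core match. With a score of at least 10 there were 12 interactions, 41.7% in all replicates, a median distance of 407 kb, 25.0% of partners with a CTCF core match and 0 contacts between member promoter fragments, since the contact of *CDKN1C* with *KCNQ1OT1* scored under 10 in every replicate. Matching partners within 5 kb raised the share in all replicates from 28.9% to 50.0%. Allowing 1 mismatch outside the 6 fixed letters of the motif raised the share of partners with a CTCF core match to 25.7%. Without 1 replicate each, the interactions numbered 69 to 82, the share in all remaining replicates was 43.4 to 43.9%, the share within the clusters 59.4 to 69.7% and the median distance 379 to 403 kb. For single promoter fragments, 28 of 54 values were within 1.5 times of the count reported, 23 were lower and 3 higher. On the merged replicates *RTL1* had 34 partners and *H19* 10. *H19* had 3 without replicate 2 and *MEG3* had 1, while *DLK1* and the *IGF2* downstream fragment had 0 without replicate 3. With 1 start per gene, taken at its 5′ end, 6 genes were left, without *H19* and *MEG3*. Contacts under a score of 5 cannot be told from absent ones, and depth per replicate was not analysed. No paired analysis was possible because there was 1 condition.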

Other observations

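Around the members, the neighbour with the most recurrent contacts on 11p15 was the fragment of *SLC22A18* and *SLC22A18AS* between *CDKN1C* and *PHLDA2*, with 15, 13 and 11 partners in replicates 1, 2 and 3 and 10 of its 17 partners in all of them. *TRPM5* had 8, 11 and 8 partners from its fragment with the most calls, 6 of 15 in all replicates, and *OSBPL5* had 9, 7 and 8, with 5 of 13. The 14q32 small RNA genes varied. The *MIR370* fragment had 17 partners in the union and *SNORD113-1* had 9, of which 2 were in all replicates. *MIR127* and *MIR433*, which share a fragment, had 4, 0 and 1 partners, *MIR379* had 3, 1 and 2, and none of the contacts of *MIR127*, *MIR433* or *MIR379* was in all replicates.

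A different *MEG3* fragment, chr14:101297761-101298599, with 8 of the 50 *MEG3* starts, appeared in the calls as a partner only. It was called with chr14:102098368-102110386 past *DIO3*, 806 kb away, in replicate 1 (5.12), the region in which the contacts of the other *MEG3* fragment also lay.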
